A study of Homo sapiens with 6 samples.

Results

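The comparison described here sets LGR6 siRNA 2 against a control siRNA in 2 human non-small cell lung carcinoma lines, A427 and HCC15, and follows the genes that moved the same way in both. It uses 4 of the 6 RNA-seq libraries: A427 with the control siRNA, called Tax in the labels, A427 with LGR6 siRNA 2, and the same pair in HCC15. Every library came from cells labelled as genotype WT, grown in RPMI 1640 with 5% fetal bovine serum and collected 48 h after transfection. The other 2 libraries hold LGR6 siRNA 4 in each line; they entered the fit and are given side by side, and both LGR6 siRNAs share the control libraries. Of 23686 genes in the deposited table, 14481 had at least 10 reads in at least 2 libraries and were tested, and 1083 of these passed the test for siRNA 2 and moved the same way in both lines.

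LGR6 is a leucine-rich repeat receptor of the cell surface that binds R-spondins. R-spondins acting through LGR receptors restrain the ubiquitin ligases RNF43 and ZNRF3, which otherwise remove Frizzled receptors, so the receptors raise the response of a cell to Wnt ligands. A small interfering RNA is a short duplex whose guide strand, held by an Argonaute protein, leads to cutting of a transcript that it matches along its length. A guide can also lower, more mildly, transcripts that match only its seed, the bases 2 to 8, in their 3' untranslated region (3' UTR), as microRNAs do.

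Each line and siRNA had 1 library, with totals of 25500000 to 29000000 estimated reads. There is therefore no test within a line. Each p-value sets the mean siRNA effect over the lines against how far the siRNA effects differed between the lines. That spread had 2 residual degrees of freedom per gene, and edgeR drew it towards the spread of other genes. The labels do not say whether libraries of a line came from separate cultures. Cell line was the main axis of difference, as principal component 1 carried 90.3% of the variance. The epithelial markers KRT8, KRT18 and EPCAM were present in every library, SFTPB was at 0 in all 6, and NKX2-1, TP63 and KRT5 were at or near 0. KRT7 was at 0 to 0.2 TPM in A427 and 614 to 1478 TPM in HCC15. KRT19 was at 0.18 to 0.38 TPM in A427 and 12.05 to 36.7 TPM in HCC15. NAPSA was at most 1.36 TPM, and SOX2 was at 1.5 to 2.93 TPM in A427 and at most 0.06 in HCC15. Of 6 leukocyte markers, CD3E and LYZ were at 0 in all 6 libraries. PTPRC had 72 to 106 reads in A427 and 0 in HCC15, and CD14 had 44 to 55 reads in HCC15. CD68, a lysosomal protein of macrophages that other cells can also express, was at 23.8 to 31.3 TPM in A427 and 1.78 to 4.18 in HCC15. Among 8 fibroblast and endothelial markers, DCN was at 0 in every library and COL1A1 was at 4.72 to 10.9 TPM. COL3A1, a fibrillar collagen, was at 74 to 96 TPM in A427 and at most 0.55 TPM in HCC15.

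LGR6 itself was measurable in HCC15 and barely so in A427. In HCC15 it had 257 reads with the control siRNA (9.32 CPM, counts scaled to library size, exact binomial 95% interval 8.21 to 10.5), 39 with siRNA 2 (1.35, 0.957 to 1.84) and 77 with siRNA 4 (2.87, 2.27 to 3.59). In A427 it had 5 reads with the control siRNA and 0 with either LGR6 siRNA. HCC15 thus kept 14.0% of the control level with siRNA 2 (interval 9.72 to 19.7), while the interval in A427 reached 122%, so that silencing could not be measured there. These intervals cover counting error only. Over both lines the log2 fold change was -2.87 ± 0.36 (SE) with siRNA 2 (adjusted p = 0.00378) and -1.76 with siRNA 4 (adjusted p = 0.00757), by edgeR's quasi-likelihood test with Benjamini-Hochberg adjustment, as all adjusted p-values here. The direct comparison of the siRNAs did not pass (difference -1.12, adjusted p = 0.0905).

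Of the genes tested, 1104 (7.62%) changed with siRNA 2 at an adjusted p under 0.05: 429 rose (2.96%) and 675 fell (4.66%). Among these, 423 were higher and 660 lower in both lines, which is 98.1% of them, and 65.2% of all genes tested had the same sign in both lines. The test sets the mean effect against the disagreement between the lines. A gene that passes it therefore tends to have the same sign in both, and this share is a description. The median log2 fold change was 0.77 for the 423 and -0.86 for the 660, against -0.01 over all genes tested. At least 2-fold differences were seen for 101 genes higher (0.697%) and 281 lower (1.94%) in A427, and for 188 higher (1.30%) and 350 lower (2.42%) in HCC15. In both lines together, 36 genes were at least 2-fold higher and 108 at least 2-fold lower, and 5 differed at least 2-fold in opposite ways. The change was larger in HCC15 than in A427 for 266 of the 423 and 457 of the 660. Without the HCC15 control library 4 genes passed, CKAP4, SMIM13, TBL1X and LOC100093631, 3 of them among the 1104. In the fit without the A427 control 173 genes passed, 166 of them among the 1104. In the fits without an siRNA 2 library 707 (A427) and 217 (HCC15) passed, of which 551 and 200 were among the 1104.

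**Figure D1:**
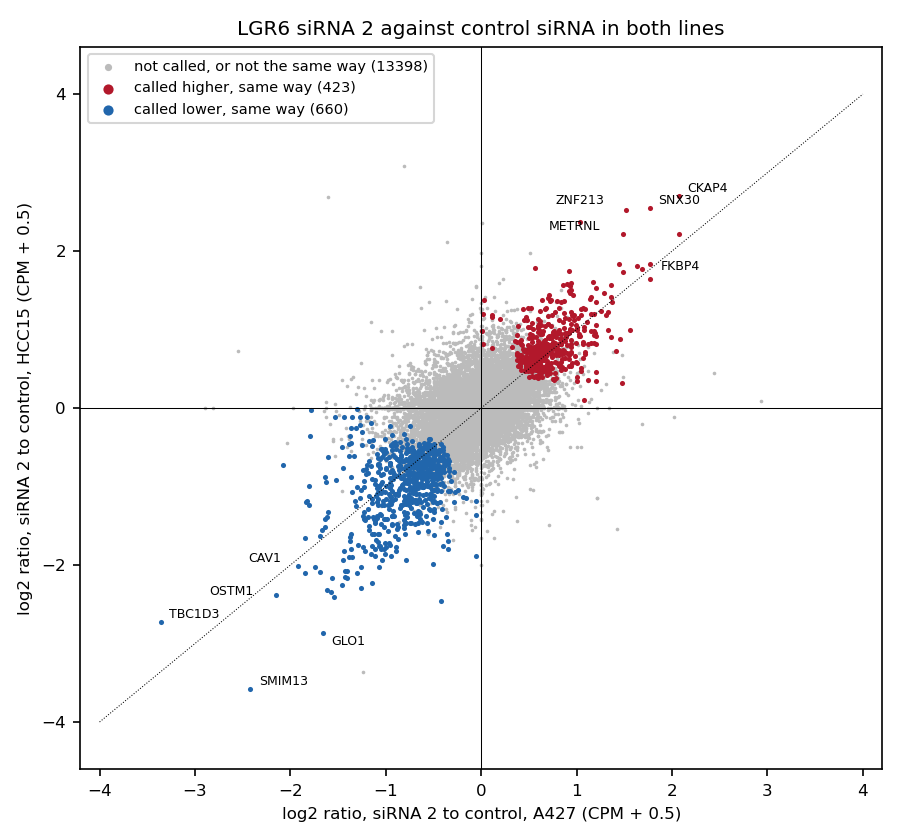
Log2 ratio of siRNA 2 to control (CPM + 0.5) in A427 (x axis) and HCC15 (y axis), 1 point per gene, with the 423 genes that rose and the 660 that fell the same way in colour; the dotted line marks equal ratios and 1 gene lies outside the axes. TBC1D3 and SMIM13 lie at the lower left and CKAP4 at the upper right, and the lower genes reach farther in HCC15 than in A427.

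Among the 15 leading genes that rose, ranked by the smaller of their changes in the 2 lines, CKAP4 came first. CKAP4, a membrane protein of the endoplasmic reticulum, was at 30.6 CPM with control and 131 with siRNA 2 in A427 and, in HCC15, at 32.6 and 215. It rose by 2.40 ± 0.17 (log2, SE; adjusted p = 0.00246), and both siRNA 2 libraries stood far above both controls. FKBP4, a co-chaperone of HSP90, went from 200 to 684 CPM in A427 and, in HCC15, from 128 to 458 (log2 fold change 1.80 ± 0.18, adjusted p = 0.00327). Levels of this gene were high in both siRNA 2 libraries, with no overlap between the groups. RHEB, the small GTPase that switches on the mTORC1 kinase, went from 37.2 to 105 CPM in A427 and, in HCC15, from 52.9 to 177 (1.62 ± 0.14, adjusted p = 0.00246). IGF2BP1, an RNA-binding protein of fetal tissue and tumours, went from 178 to 462 CPM and from 162 to 414 (1.36 ± 0.12, adjusted p = 0.00246). Both genes were higher in each siRNA 2 library than in either control.

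SNX30, a sorting nexin, was at 8.53 CPM with control and 30.2 with siRNA 2 in A427 and, in HCC15, at 13.4 and 80.9 (log2 fold change 2.23 ± 0.20, adjusted p = 0.00279). LRRC8A, the required subunit of the volume-regulated anion channel, went from 17.6 to 57.4 CPM and from 26.4 to 91.2 (1.75 ± 0.14, adjusted p = 0.00246). The rise in LRRC8A was of like size in both lines. With siRNA 4 it was -0.09 (adjusted p = 0.721), and siRNA 2 exceeded siRNA 4 by 1.84 (adjusted p = 0.000506). LMLN, a metallopeptidase, went from 28.2 to 69.6 CPM in A427 and, in HCC15, from 6.12 to 17.7 (1.40 ± 0.15, adjusted p = 0.00386). This gene fell with siRNA 4 (log2 fold change -1.42, adjusted p = 0.00237), so the siRNAs moved it in opposite directions. The other genes of this set were SCML2, a polycomb-group protein, SBK1, ZNF213, METRNL, C1orf233, MLLT1, LDLRAD3 and LONP1, the mitochondrial Lon protease. Across all 15, log2 ratios ran from 1.26 to 2.07 in A427 and, in HCC15, from 1.24 to 2.70. Of the 15, 13 also rose with siRNA 4, against 4.58% of all genes; both siRNAs were set against the same controls, so this count is a description. In the direct test 5 differed between the siRNAs while 10 did not pass.

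Among the 15 leading genes that fell, SMIM13, which encodes a small membrane protein, was at 84.8 CPM with control and 15.4 with siRNA 2 in A427 and, in HCC15, at 188 and 15.3. Its log2 fold change was -3.08 ± 0.29 (adjusted p = 0.00279), and the level left was nearly the same in both lines. OSTM1, a partner of the lysosomal chloride transporter ClC-7, went from 72.5 to 15.9 CPM and from 75.6 to 14.1 (-2.30 ± 0.17, adjusted p = 0.00246). CAV1, the main coat protein of caveolae, went from 206 to 54.2 CPM and from 69.7 to 16.9 (-1.99 ± 0.16, adjusted p = 0.00246). The siRNA 2 library of A427 was below the HCC15 control for CAV1, so the groups did not overlap. TBL1X, a subunit of nuclear corepressor complexes that also binds beta-catenin, went from 108 to 29.7 CPM and from 122 to 27.9 (-2.0 ± 0.13, adjusted p = 0.00246). With siRNA 4 TBL1X was at 0.35 (adjusted p = 0.097), and the direct difference was -2.35 (adjusted p = 0.000301).

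GLO1, the glyoxalase that detoxifies methylglyoxal, was at 340 CPM with control and 107 with siRNA 2 in A427 and, in HCC15, at 434 and 59.3 (log2 fold change -2.21 ± 0.31, adjusted p = 0.00767). Its drop was larger in HCC15. VPS4B, an ATPase of the ESCRT machinery, went from 67.3 to 22.4 CPM and from 63.2 to 12.1 (-1.96 ± 0.20, adjusted p = 0.00366). DDAH1, which degrades asymmetric dimethylarginine, went from 124 to 38.1 CPM and from 387 to 125 (-1.66 ± 0.14, adjusted p = 0.00246). The control level of DDAH1 differed between the lines while its log2 ratios were close, -1.69 and -1.63. BCAT1, the cytosolic branched-chain aminotransferase, went from 28.8 to 8.88 CPM and from 1080 to 374 (-1.59 ± 0.14, adjusted p = 0.00246). BCAT1 in A427 with control was below BCAT1 in HCC15 with siRNA 2, so its groups overlap across lines and separate within each.

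Further leading genes that fell were ELL2, an elongation factor of RNA polymerase II, HNRNPH2, ETNK2, ZNF204P, CPEB3 and TBC1D3. HNRNPH2 shares reads with a read-through gene and ZNF204P is a pseudogene, so their counts are uncertain. TBC1D3 belongs to a family of near-identical copies: it had 135 and 74 estimated reads with control and 0 with siRNA 2 in both lines, at least 40.5-fold lower in A427 and at least 26.8-fold lower in HCC15 against a floor of 3 reads per library. The summed family of 8 members went only from 19.9 to 13.6 CPM in A427 and, in HCC15, from 5.70 to 6.14, so how the reads were divided among copies may differ between libraries. Of the 15 lower genes, 7 also fell with siRNA 4, against 7.95% of all genes and with the same controls, and 11 differed between the siRNAs in the direct test. Leaving out the HCC15 control left 3 of the 30 leading genes past the threshold, CKAP4, SMIM13 and TBL1X, and all 30 kept their direction. Leaving out the A427 control left 28 (not METRNL and ETNK2), and leaving out the HCC15 siRNA 2 library left 29 (not ZNF213).

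**Figure D2:**
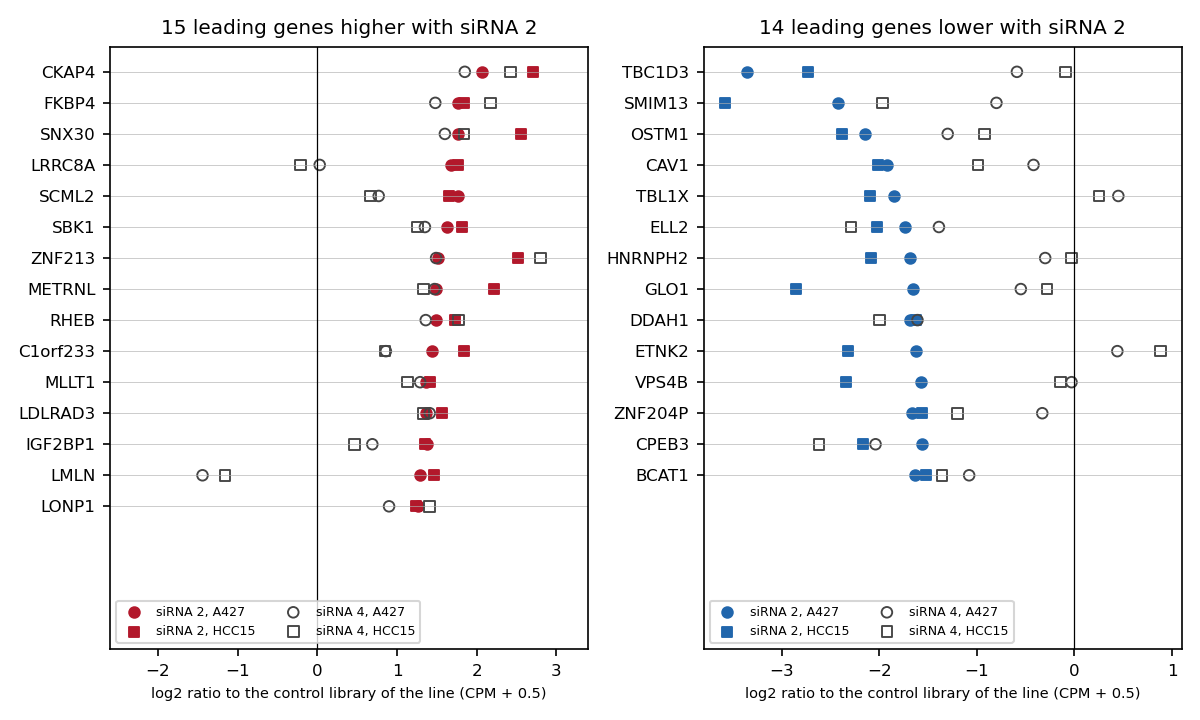
Log2 ratios to control within each line (CPM + 0.5) for the 15 leading genes that rose (left) and 14 of the 15 that fell (right) with siRNA 2; filled symbols are siRNA 2, open symbols siRNA 4, circles A427 and squares HCC15. Open symbols follow the filled ones for most of the higher genes and lie near 0 for VPS4B and HNRNPH2. They lie on the other side of 0 for LMLN, TBL1X and ETNK2.

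At the edge of the threshold, ARHGAP5 (log2 fold change 0.54), CASC2 (1.14), LINC00857 (-0.68) and CIRH1A (0.59) were just inside at an adjusted p of 0.0497. KIF3A (0.51), WDFY3 (0.60) and ZNF664 (0.45) were just outside at 0.0501.

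The same genes were then set against siRNA 4. With siRNA 4, 1814 genes (12.5%) changed, and the direct test of siRNA 2 against siRNA 4 passed for 2395 (16.5%). Of the 423 higher genes, 115 were higher with siRNA 2 than with siRNA 4, 7 were lower, and 301 did not pass the direct test. Of the 660 lower genes, 384 were lower with siRNA 2, 19 were higher, and 257 did not pass. The median log2 fold change with siRNA 4 was 0.52 for the higher genes and -0.21 for the lower, against 0.77 and -0.86 with siRNA 2 and -0.01 over all genes. The genes were chosen on siRNA 2 against the same controls, so these medians are a description, and a difference between the shares was not tested.

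The 3' UTRs of the genes that fell shared short sequence runs. For each of 14641 heptamers held by at least 200 genes, the median log2 ratio of the genes with it in their longest 3' UTR was set against that of the genes without it, over 13221 tested genes with a 3' UTR of at least 50 bases in GENCODE release 29 (91.30% of those tested). The heptamer GTGATTC had the lowest difference in both lines, -0.14 in A427 and -0.12 in HCC15. Its difference with siRNA 4 was 0.01 and 0.00. The overlapping TGATTCA came second in A427 (-0.11) and at place 3 in HCC15 (-0.08). GCTCTTA shares no run with it and came at place 3 in A427 (-0.11) and second in HCC15 (-0.10), and AGCTCTT, the same run moved by 1 base, was at place 27 in A427 (-0.08) and place 4 in HCC15 (-0.07). For siRNA 4 the lowest was ATGGATA in both lines (-0.23 and -0.30), at -0.05 and 0.00 with siRNA 2. Over all heptamers compared for siRNA 2, the SD of the differences was 0.026 in A427 and 0.012 in HCC15. The highest in A427, ATCGGCC, was at 0.11 there and 0.05 in HCC15, and at 0.11 and 0.06 with siRNA 4. GATAGGT, at place 4 in A427 (-0.09), was at 0.00 in HCC15. The heptamers were picked from these ratios, so their values are a description with no test.

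**Figure D3:**
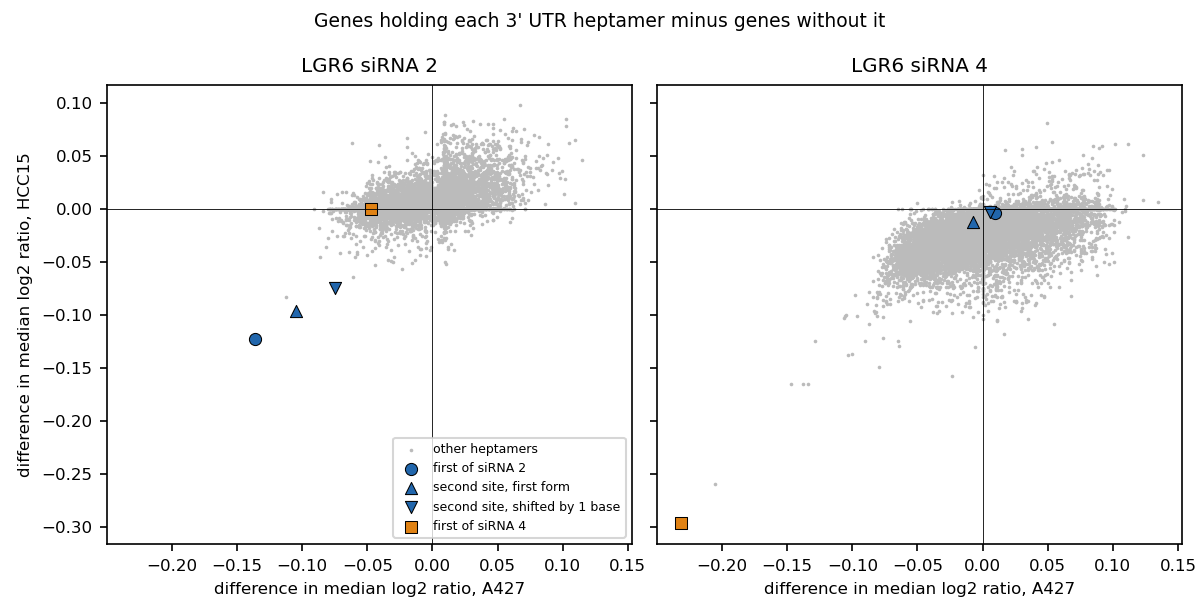
Each point is a 3' UTR heptamer: the median log2 ratio of the genes holding it minus that of the genes without it, in A427 (x axis) and HCC15 (y axis), for siRNA 2 (left) and siRNA 4 (right). The heptamer lowest for siRNA 2 (circle) lies at the lower left for siRNA 2 and within the cloud for siRNA 4, and the 2 forms of the second run (triangles) are low in both lines for siRNA 2, with 1 of them at place 27 in A427; the square shows the reverse for the first heptamer of siRNA 4.

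These runs can be set beside LGR6. The sequences below are shown because they hold the leading heptamer: the stretch of the LGR6 coding region that carries it, and 19-base stretches of 3' UTRs of leading genes that fell. Capitals mark GTGATTC and, in LGR6, also AAGAGCT, the reverse complement of AGCTCTT, which ends 3 bases before it. All read 5' to 3' on the transcript from GENCODE release 29 (GRCh38).
LGR6, coding exon 18 of LGR6-203: gAAGAGCTcctGTGATTCt
SMIM13, 3' UTR: tggtttgaaaaGTGATTCa
SMIM13, 3' UTR: atactgctgctGTGATTCc
CAV1, 3' UTR: gaaatggctttGTGATTCa
TBL1X, 3' UTR: gagagctttgtGTGATTCa
GLO1, 3' UTR: aaggaaacaatGTGATTCa
DDAH1, 3' UTR: acttgggtgatGTGATTCa
ELL2, 3' UTR: cataacatactGTGATTCa
CPEB3, 3' UTR: ctttagacattGTGATTCa
The LGR6 stretch lies at chr1:202318883-202318901 on the plus strand. Of the genes shown, DDAH1, ELL2 and CPEB3 fell with siRNA 4 as well (log2 fold changes -1.82, -1.86 and -2.47). Their direct tests did not pass (adjusted p = 0.495, 0.849 and 0.183). SMIM13, CAV1, TBL1X and GLO1 were lower with siRNA 2 than with siRNA 4 in the direct test. Among the leading genes that fell, HNRNPH2, ETNK2 and BCAT1 also hold GTGATTC and are not shown. CAV1, GLO1 and CPEB3 each hold a further GTGATTC that is not shown and is not followed by A. Outside the heptamer the 3' UTR sites shown matched LGR6 only in part. Of the 19 positions, the heptamer included, 13 were equal for the second SMIM13 site and 12 for CAV1 and ELL2. TBL1X and GLO1 had 11 equal, DDAH1 and CPEB3 10 and the first SMIM13 site 7. The further sites of CAV1, GLO1 and CPEB3 had 10, 10 and 12 equal. The longest LGR6 transcript, of 3567 bases, holds 17.1% of all 16384 heptamers, so that holding a given one is not rare. ATGGATA, the first heptamer of siRNA 4, also occurs in LGR6, in the 3' UTR part of exon 18. The labels do not give the siRNA sequences, and whether either siRNA was designed on these stretches was not tested. None of 2545 mature human microRNAs in the RefSeq table has a seed complementary to any of these 3 runs.

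Genes were grouped by the site they hold. The 473 genes with GTGATTC followed by A had median log2 ratios of -0.28 in A427 and -0.26 in HCC15, and 22.0% of them passed the test as lower. The 1216 with GTGATTC and no A after it had medians of -0.10 and -0.08 (10.9% lower). Genes with none of the sites, 8703 in number, had medians of 0.01 and 0.03, and 2.29% passed as lower and 3.53% as higher. The 260 genes whose site was the 8-base run of AGCTCTT and GCTCTTA together had medians of -0.11 and -0.15 (12.3% lower). The 1476 with 1 of these 7-base runs had medians of -0.03 and -0.02, near those of the genes with no site. Of these 1476, 6.44% passed as lower, against 2.29% of the genes with no site. Classes differ in 3' UTR length: the median was 3799 bases for the 473 genes, 2183 for the 1476 and 904 for the genes with no site. The 1093 genes with the last 6 bases of the leading heptamer followed by A had -0.07 and -0.02 (6.68% lower). With siRNA 4 the medians of these 6 classes lay between -0.04 and 0.02. These percentages stand against 4.66% lower over all genes tested.

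**Figure D4:**
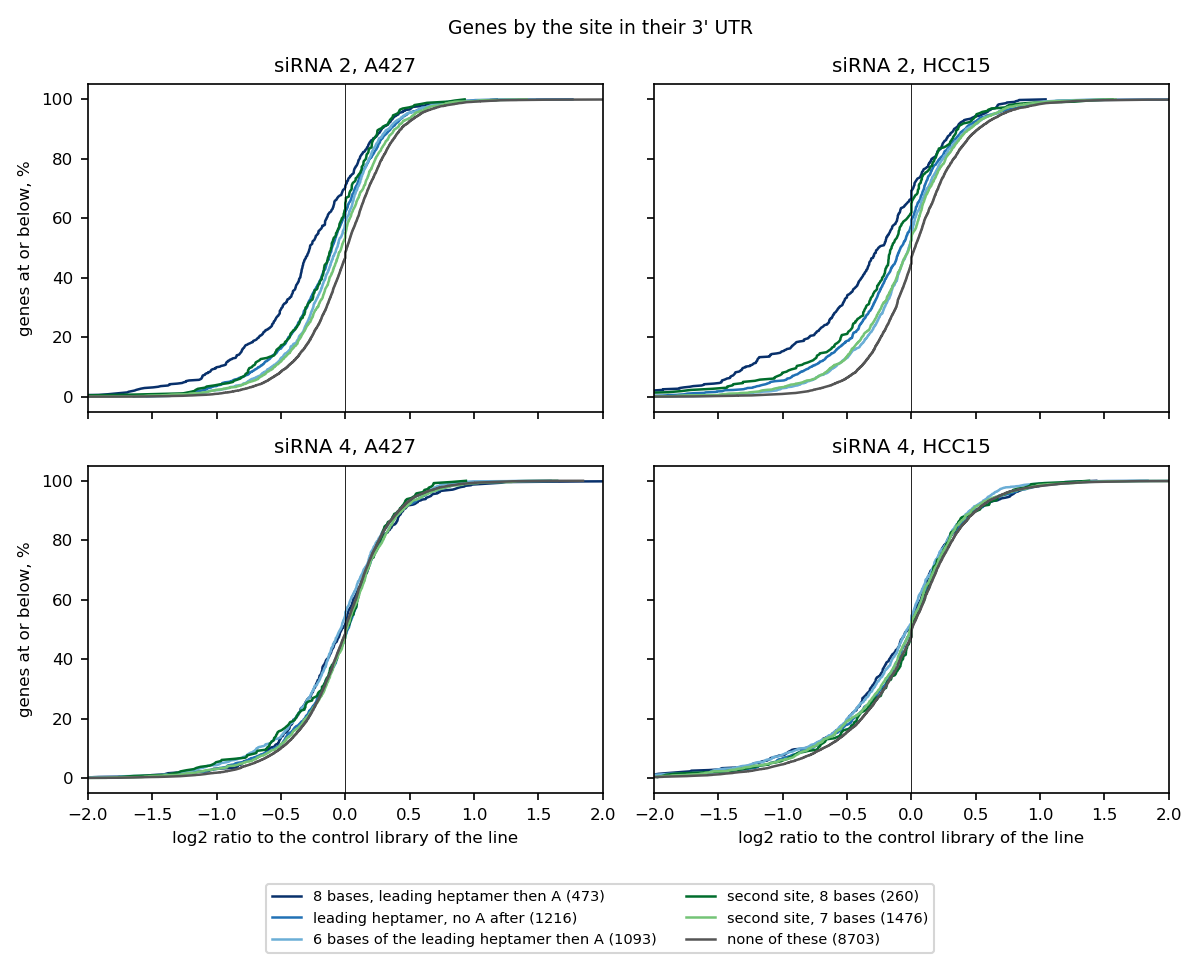
Cumulative share of genes (y axis) by log2 ratio to control within each line (x axis), for genes grouped by their 3' UTR site, with siRNA 2 (top) and siRNA 4 (bottom). With siRNA 2 the 473 genes with the 8-base site lie farthest left in both lines, with medians of -0.28 and -0.26; with siRNA 4 the curves lie together.

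Seen from the genes that fell, 623 of the 660 had a 3' UTR, and 37.4% of these held GTGATTC against 12.8% of all 13221 genes and 9.93% of the 413 higher genes with a 3' UTR. Any of the 3 runs was held by 63.2%, against 28.7% of all genes. Length moves with this: the median 3' UTR was 2082 bases for the lower genes, 1701 for the higher and 1379 for all, and the median GC content was 39.7%, 44.8% and 42.7%. With genes split by 3' UTR length into 3 equal groups, a choice made after seeing the data, the difference for GTGATTC was -0.27, -0.17 and -0.10 in A427 from the shortest group to the longest, and -0.26, -0.19 and -0.12 in HCC15. Among the 15 leading genes that fell, 14 had a 3' UTR, 10 held GTGATTC and 12 held at least 1 of the 3 runs. OSTM1 held AGCTCTT and VPS4B held GCTCTTA. Of the 15 leading genes that rose, 13 held none, SNX30 held GTGATTC and LDLRAD3 held AGCTCTT.

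Pathway lists were examined next, starting with the receptors of the R-spondin pathway. Their counts stand against 2.96% called higher, 4.66% called lower and 7.62% called in all over the genes tested, and a median of -0.01. Besides LGR6, 5 of its list were tested and none passed in edgeR, 2 of them with an unadjusted p under 0.05, while DESeq2 called 1 of the 4 members it gave a p higher. LGR4, the most widely expressed LGR receptor, was at 6.20 CPM with control and 7.28 with siRNA 2 in A427 and, in HCC15, at 91.8 and 124 (log2 fold change 0.35, adjusted p = 0.156). RNF43, the ubiquitin ligase, was at 40.8 and 50.6 CPM in A427 and, in HCC15, at 18.8 and 32.2 (0.53, adjusted p = 0.0777). Both were slightly higher with siRNA 2 in both lines and short of the threshold. Of 25 Wnt feedback and target genes, 3 fell (12%) and none rose in edgeR, with a median of -0.23, and DESeq2 called 2 lower and 1 higher. NKD1, an inhibitor of the pathway that the pathway induces, went from 42.7 to 21.8 CPM in A427 and, in HCC15, from 578 to 356 (-0.82, adjusted p = 0.00973). TCF7L2, the transcription factor that pairs with beta-catenin, went from 91.2 to 59.8 CPM and from 58.1 to 37.0 (-0.63, adjusted p = 0.0196). WIF1, a secreted Wnt inhibitor, was near 0 in A427 and went from 99.6 to 26.4 CPM in HCC15, so its call rests on HCC15. In their 3' UTRs, NKD1 holds GTGATTC and AGCTCTT, TCF7L2 holds GCTCTTA, and WIF1 holds AGCTCTT and GCTCTTA. Of all genes with a 3' UTR, 28.7% hold any of these runs. Longer 3' UTRs hold more runs, and the 3' UTR was 15468 bases for NKD1, 2044 for TCF7L2 and 723 for WIF1. The median over all genes was 1379. With siRNA 4 the log2 fold changes of NKD1, TCF7L2 and WIF1 were -0.43, 0.01 and 0.02 (adjusted p = 0.061, 0.962 and 0.966). The cause of the falls with siRNA 2 was not tested. AXIN2, a target of the pathway in many tissues, had a log2 fold change of -0.28 (adjusted p = 0.218).

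The amino acid response list fell in part. Of 30 ATF4 targets and regulators, 10 fell (33.3%) and 1 rose (3.33%), against 4.66% and 2.96% of all genes, with a median of -0.48 (-0.13 in A427 and -0.67 in HCC15). ATF4 itself, the transcription factor of the integrated stress response, went from 241 to 137 CPM in A427 and, in HCC15, from 358 to 223 (log2 fold change -0.74 ± 0.17, adjusted p = 0.0372). PSAT1, of serine synthesis, went from 82.2 to 44.0 CPM and from 794 to 232 (-1.37 ± 0.22, adjusted p = 0.0108). CHAC1, which degrades glutathione, went from 4.90 to 1.94 CPM and from 33.0 to 9.36 (-1.63 ± 0.27, adjusted p = 0.0129). All 3 were lower in each siRNA 2 library than in the control of its line. PHGDH, CTH, ASNS, ATF5, PCK2, TRIB3 and NUPR1 also fell. SLC7A5, a transporter of large amino acids, was the 1 that rose, from 153 to 353 CPM and from 713 to 1350 (1.06 ± 0.15, adjusted p = 0.00826). The list's median with siRNA 4 was -0.46. The lower members numbered 5 without the A427 control, 7 without siRNA 2 in A427 and 1 without siRNA 2 in HCC15. Of 20 cytosolic aminoacyl-tRNA synthetases, 3 fell (15%), NARS (-1.21, adjusted p = 0.00554), SARS (-0.66) and CARS (-0.76), with a median of -0.19. NARS holds GTGATTC in its 3' UTR, and so does SLC7A5, which rose.

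Several genes of sterol and fatty acid synthesis rose. Of 22 enzymes and regulators 5 rose (22.7%, against 2.96% of all genes) and none fell in edgeR, with a median of 0.48. DESeq2 called 12 higher and the fit of only the control and siRNA 2 libraries 8, while limma-voom and the fit with no filter called 3. Leaving out siRNA 2 in A427 gave 1, leaving it out in HCC15 gave 3, and leaving out either control gave 0. DHCR7, the last enzyme of cholesterol synthesis, went from 246 to 444 CPM in A427 and, in HCC15, from 25.4 to 41.3 (log2 fold change 0.78 ± 0.12, adjusted p = 0.00996). FASN, fatty acid synthase, went from 719 to 1490 CPM and from 166 to 230 (0.78 ± 0.19, adjusted p = 0.0463). Its rise was larger in A427. SQLE (0.67, adjusted p = 0.0299), HMGCS1 (0.72, adjusted p = 0.038) and FDFT1 (0.77, adjusted p = 0.044) rose too, each by a like amount in both lines. With siRNA 4 the list's median was -0.24, with 0 rising and 6 falling, and 16 of the 22 were higher with siRNA 2 than with siRNA 4 in the direct test.

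In other lists a few members passed. In the mTORC1 list of 32, RHEB and AKT1S1, an inhibitory partner of mTORC1 (0.99, adjusted p = 0.00722), rose in edgeR, a share of 6.25% called, below the 7.62% of all genes, with a median of 0.01. DESeq2 called 3 of that list higher and 1 lower. Of 23 SWI/SNF subunits 4 rose (17.4%), and PHF10 fell (-0.69, adjusted p = 0.0322). ARID1A rose from 217 to 346 CPM in A427 and, in HCC15, from 170 to 282 (0.71 ± 0.11, adjusted p = 0.00964). The others that rose were BCL7C, DPF1 and SMARCB1. SMARCB1 holds AGCTCTT and GCTCTTA in the 3' UTR, and ARID1A, BCL7C and DPF1 hold none of these runs. Of 18 NF-kappaB genes 5 rose (27.8%), 3 of them the same way in both lines, and none passed without either A427 library. ICAM1, an adhesion molecule, went from 193 to 405 CPM and from 28.3 to 51.1 (0.97 ± 0.17, adjusted p = 0.014). CXCL1 and CXCL3, neutrophil chemokines, passed the test and were higher in A427 (3.36 to 11.8 and 0.924 to 5.26 CPM). In HCC15 they were at or under 0.114 CPM, so these calls rest on A427. CXCL2, also called higher, went from 6.4 to 18.6 CPM in A427 and had only 7 and 13 reads in HCC15. The median of the NF-kappaB list was 0.19 (0.03 in A427 and -0.14 in HCC15). In that list limma-voom called 3 higher, limma on log2(TPM + 1) called 2, and DESeq2 called 3 higher and 1 lower. EdgeR with DESeq2 size factors called 5 higher. Among 13 polycomb repressive complex 2 genes, SUZ12, a core subunit, fell from 212 to 109 CPM and from 111 to 32.6 (-1.36 ± 0.18, adjusted p = 0.00722). LCOR fell as well (-1.20, adjusted p = 0.0092), and both fell with siRNA 4 too (-1.52 and -1.15). SUZ12 and LCOR both hold GTGATTC in the 3' UTR, which is 2042 bases long in SUZ12 and 10825 in LCOR.

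In the cell cycle lists, AURKA, a mitotic kinase, fell from 105 to 58.6 CPM in A427 and, in HCC15, from 109 to 46.0 (-1.04 ± 0.14, adjusted p = 0.00717). TOP2A and BIRC5 also fell and NUSAP1 rose, so that 4 of 30 mitosis genes passed (13.3%), and the list's median was 0.17. DESeq2 called 4 mitosis genes higher and 3 lower. In the 3' UTR, AURKA holds GTGATTC and TOP2A holds AGCTCTT and GCTCTTA, while BIRC5 and NUSAP1 hold none of these runs. Of 35 replication genes, 1 passed in edgeR, UHRF1 (0.61, adjusted p = 0.0452), a share of 2.86% and below the 7.62% of all genes, and DESeq2 called 2. Of 21 p53 targets, DDB2, MDM2 and FDXR fell (14.3%, against 4.66% of all genes), with a median of -0.28. MDM2 holds GTGATTC and GCTCTTA in a 3' UTR of 10837 bases, and DDB2 and FDXR hold none of these runs. Of 18 BCL2 family genes, BCL2L1, which opposes apoptosis (-0.63, adjusted p = 0.016), and BAK1, which promotes it (-1.01, adjusted p = 0.0184), both fell, a share of 11.1%. BCL2L1 holds AGCTCTT in the 3' UTR and BAK1 holds none of these runs. Both integrin subunits that passed, ITGA2 (1.10, adjusted p = 0.0239) and ITGA6 (0.69, adjusted p = 0.0336), rose, and ITGA6 fell with siRNA 4 (-1.35). ITGA2, which rose, holds GTGATTC in the 3' UTR, and ITGA6 holds none of these runs. The paralogs IGF2BP1 and IGF2BP2 moved apart, as IGF2BP2 fell from 175 to 94.6 CPM and from 106 to 58.2 (-0.88 ± 0.13, adjusted p = 0.0092).

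Of 49 cytosolic ribosomal proteins, 45 were lower with siRNA 2 in both lines, by a median of -0.28, and 3 passed in edgeR, RPL10A, RPS23 and RPL3 (6.12%, against 4.66% of all genes). DESeq2 called 11 lower and limma on log2(TPM + 1) 9, while edgeR called 1 with DESeq2 size factors, with no filter, and with only the control and siRNA 2 libraries. None passed without any 1 of the 4 control and siRNA 2 libraries. Their median with siRNA 4 was 0.12, and 22 were lower with siRNA 2 than with siRNA 4. The 11 replication-dependent histones, whose transcripts mostly lack a poly(A) tail, had a median of -0.72 in A427 and -0.07 in HCC15. HIST2H2BE was the 1 that fell, and it holds GTGATTC in its 3' UTR. In the direct test it was lower with siRNA 2 than with siRNA 4 (-1.15, adjusted p = 0.00616). Of 30 interferon-stimulated genes none passed in edgeR, 5 had an unadjusted p under 0.05, and DESeq2 called none of the 22 it tested. Among 23 epithelial adhesion genes none passed in edgeR, 4 had an unadjusted p under 0.05, and DESeq2 called 1 of 21 lower. CDH1, E-cadherin, was at 7.64 and 7.70 CPM in A427 and went from 19.5 to 102 in HCC15 (1.51 ± 0.54, adjusted p = 0.128), a difference seen in 1 line only. Without the HCC15 control library, no member passed in the lists of ATF4, sterol, NF-kappaB, SWI/SNF, mTORC1, Wnt, BCL2, integrin or ribosomal protein genes. Of the list members followed through the alternatives of tool, scaling and filter that keep the cell line in the fit, BIRC5 and FDXR passed in 3 of 8, CXCL1 in 4 of 8 and CXCL3 in 4 of 7. RPS23, RPL3, MDM2 and WIF1 passed in 5 of 8, UHRF1, FDFT1 and ITGA6 in 6 of 8, and CARS and ITGA2 in 7 of 8.

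**Figure D5:**
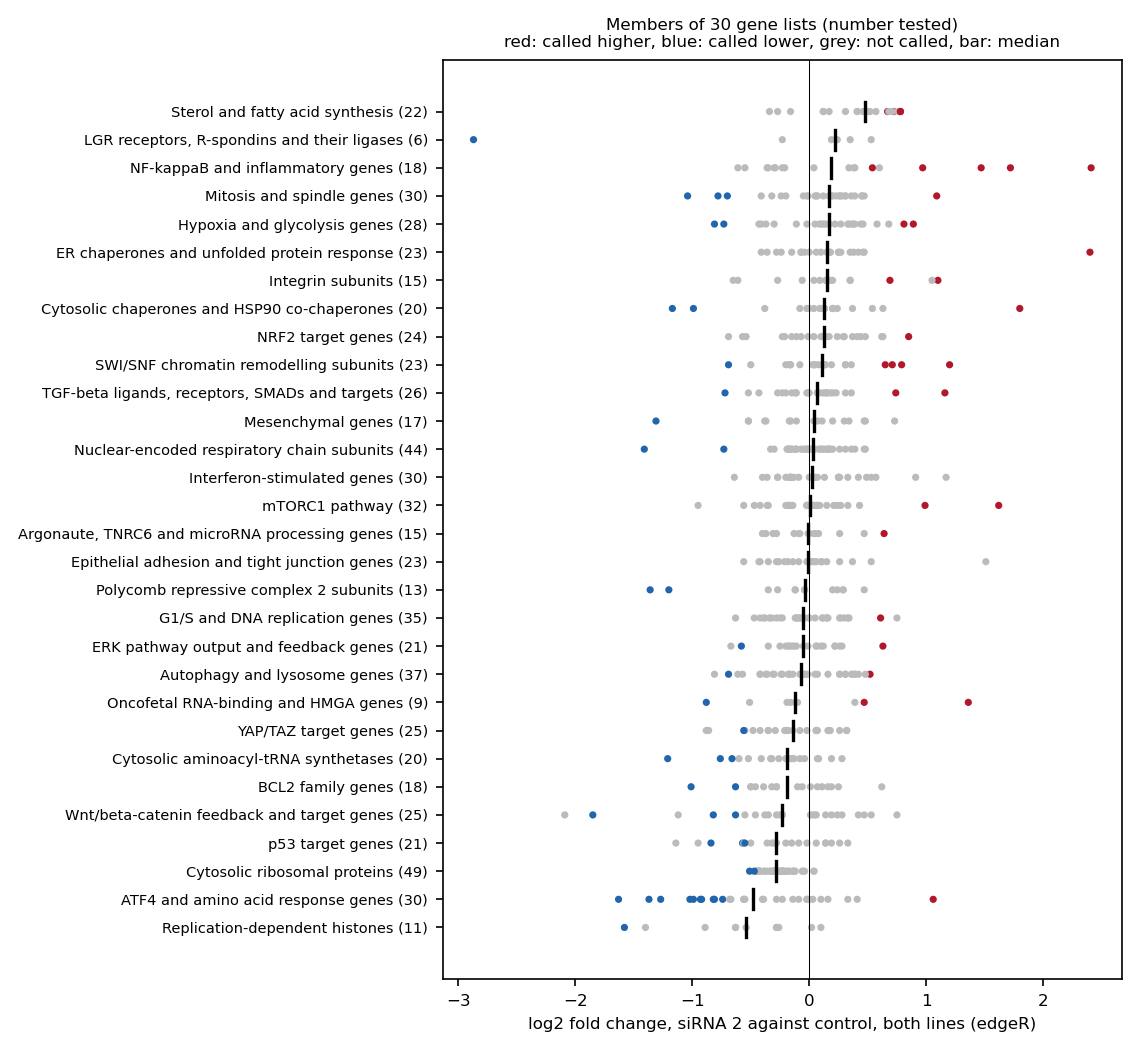
Log2 fold change of siRNA 2 against control over both lines (x axis) for the tested members of 30 gene lists, ordered by median; red and blue points passed the test, grey ones did not, and the bar is the median. The sterol list has the highest median, 0.48, and the histone and ATF4 lists the lowest, -0.54 and -0.48.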

How the data were processed

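The authors deposited 2 tables over 23686 gene symbols, one of expected counts from RSEM and one of TPM. Per the submitters' processing notes, FastQC 0.11.1, STAR 2.5.3a and RSEM 1.3.3 were used on hg19; which gene annotation RSEM read is not stated there. Per the labels' protocols, libraries came from column-purified, DNase-treated RNA and a KAPA mRNA kit. Expected counts (5.75% to 6.29% not whole) were rounded. Genes reaching 10 reads in 2 or more of 6 libraries were fitted in edgeR 4.0.16 (R 4.3.3; TMM; quasi-likelihood; cell line plus siRNA), with Benjamini-Hochberg adjustment over all 14481 genes. The cell line is the block, since the libraries of a line come from the same cell line. Deviations of control and siRNA 2 libraries from the mean of their siRNA group correlated at 0.971 within a line. Each group has 1 library per line, so this value says only that the lines differ alike in both groups. CPM are TMM-scaled, except LGR6 levels with intervals. Ratios within a line used CPM + 0.5. The fit was also run on simulated counts with a common spread and equal siRNA effects in both lines. That run cannot say how the fit behaves where the lines differ. Sequences came from GENCODE release 29 transcripts (GRCh38), matched by symbol or RefSeq synonym for 18285 genes. No genome of the counts' build was used.

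Leading genes were the 15 higher and 15 lower, past the threshold and the same way in both lines, with a mean CPM of at least 1 in each line, whose smaller absolute log2 ratio over the lines was largest. From each list up to 4 members past the threshold, by smallest p, or 2 not past it, were to be named; further members were named after their values were seen. The members and lists were chosen with earlier results of these data known. Alternatives were DESeq2 1.42.0, limma 3.58.1 (voom, and log2 of TPM plus 1 or 0.1 as deposited by the authors), other filters and scalings, and leaving out each library. Results for a few genes are not reported here.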

Additional observations from a re-analysis of the deposited data

Results flagged for a closer look

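ANKRD20A1 had a log2 ratio of siRNA 2 to control of -1.61 in A427 (2.53 to 0.496 CPM) and 2.69 in HCC15 (0 to 2.73 CPM), 4.30 apart, and drew attention because the lines moved in opposite ways. The difference between the lines was not tested, since each has 1 library per siRNA. ANKRD20A1 belongs to a family of near-identical copies, so its estimated counts are uncertain.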

How the results depend on the processing

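The count of 1104 genes was 678 with limma on log2(TPM + 0.1), and the other scalings, filters and tools kept it within 1.5 times. Without the replicate block (cell line left out of the fit) 0 genes passed in edgeR for siRNA 2, siRNA 4, their direct comparison and the same-way count, with 244 at an unadjusted p under 0.05 for siRNA 2; the spread then holds the difference between the lines. The higher genes were 690 with DESeq2, and the lower 393 and 344 with limma on log2(TPM + 1) and log2(TPM + 0.1). siRNA 4 called 1145 genes with log2(TPM + 0.1). Leaving out 1 library at a time gave 4 to 1341 genes in all, 1 to 540 higher, 3 to 801 lower, 118 to 2075 for siRNA 4, 646 to 2126 for the direct comparison and 1286 to 1305 the same way (siRNA 4 libraries only). With fewer libraries 1 residual degree of freedom is left, and a lone library is assumed to vary like the others.

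At least 2-fold higher in both lines were 57 genes with a prior of 0.1 CPM, 282 at 1.5-fold and 7 at 3-fold, against 36. Lower were 69 with a prior of 2 CPM, 466 at 1.5-fold and 11 at 3-fold, against 108. Opposite were 18 and 0 with those priors, 19 at 1.5-fold and 1 at 3-fold, against 5. LGR6 was at -2.83 (adjusted p = 1) without the replicate block, -1.01 (0.166) and -1.86 (0.072) with limma on log2(TPM + 1) and log2(TPM + 0.1), and -5.94 to -2.83 with 1 library left out. The leading heptamer differed by -0.17 in both lines with the shortest 3' UTR, and by -0.27, -0.17 and -0.10 (A427) and -0.26, -0.19 and -0.12 (HCC15) within 3 groups of 3' UTR length, added after seeing the data.

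Direction turned only with a library left out: ANKRD20A1 to -1.92 and -1.55 (range to 9.08), WIF1 to 0.17 (range from -1.93), IFIT2 to -0.61 (range to 1.04), CXCL3 to -2.63 (range to 2.48) and CXCL1 to -1.33 and -0.28 (range to 1.81); the cause was not tested. All 30 leading genes kept their direction under every alternative run. DESeq2 gave no adjusted p for 2808 genes, LGR6 among them.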
